A study of Mus musculus with 81 samples.

Results

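Genes that build fatty acids and cholesterol were followed in the hearts of BXD mice on a high fat or a chow diet. The module holds 39 listed genes in 2 arms, 20 of fatty acid synthesis and 19 of sterol synthesis. Each gene was read from the single-symbol probe set whose mean over the 81 arrays was highest. In this way 36 of the 39 genes were measured, 19 in the fatty acid arm and 17 in the sterol arm, among 22180 named genes in all. Scd2 and Idi1 lie only on probe sets that carry several gene symbols, and no probe set was named for Acat2, so these 3 genes were not analysed here. No measured member had more than 1 single-symbol probe set.

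The high fat group held 39 pools of heart RNA and the chow group 42 pools, with 1 array per pool. All animals were males of 29 weeks that had been fasted overnight, and each pool joined about 5 animals of 1 strain on 1 diet in equal amounts. The strains were BXD recombinant inbred lines, which carry mixed genomes of DBA/2J and C57BL/6J, and both parent strains. Paired pools from high fat and chow existed for 39 strains, 37 of them BXD lines and 2 the parents, while BXD60, BXD79 and BXD92a were on chow only. Diet was taken from the treatment label, since the protocol text shared by all samples mentions only chow, and what the high fat diet was made of is not stated there. The labels name no engineered allele. Pooling hides the spread between animals. The p-values for diet, strain and parents are set against the spread that remains once strain and diet are taken out. Those for correlations come from shuffling values over strains.

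Values are in rescaled expression units, a log-like score set by the authors to a mean of 8 and an SD of 2 on every array. Its log base is unknown, so differences are given in units and never as folds, and levels of different genes are not set against each other. Arrays correlated with each other at 0.969 to 0.992 over genes. The 8 cardiomyocyte markers all lay at or above the 91.8th percentile of gene level, which matches the tissue label. At an adjusted p under 0.05 in limma, 0 of them rose on high fat and 5 fell, against 23.8% and 21.2% of all genes. Of 92 control probe sets for ERCC spike-in sequences, 37 (40.2%) differed between the diets by the same test, and the 95th percentile of their absolute difference was 0.247 units. Array batch was not analysed here.

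Fatty acids are built in the cytosol from citrate-derived acetyl-CoA, which acetyl-CoA carboxylase turns into malonyl-CoA for fatty acid synthase. Sterols are built from the same acetyl-CoA through mevalonate, squalene and lanosterol. The transcription factor SREBP-1c, with ChREBP, is best known for switching on the fatty acid enzymes in liver and fat, and SREBP-2 for switching on the sterol enzymes when membrane cholesterol is low. The heart mainly burns fatty acids that it takes up, and its malonyl-CoA is known above all as a brake on their entry into mitochondria.

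Between the diets, 15 of the 36 measured members differed at an adjusted p under 0.05 in limma, 3 higher and 12 lower on high fat. This was a share near the background, since 45.0% of all genes passed the same test, 23.8% higher and 21.2% lower. In the fatty acid arm 2 of 19 genes rose on high fat, 8 fell and 9 did not pass, with a median difference of -0.0557 units. In the sterol arm 1 of 17 rose, 4 fell and 12 did not pass, with a median of -0.0165 units. Over all genes the median difference was 0.00526 units. Each difference below is the mean over all 39 strains with its SE, and the number of strains beside it counts those whose own difference had that sign. Of the 15 called members, 5 differed by more than the 0.247 units that bounded most control probe sets: Scd1, Fasn, Thrsp, Lss and Fdft1, all lower on high fat. Leaving out 1 strain brought 3 of them inside that bound, Fasn at -0.212 units without BXD56, Fdft1 at -0.234 without BXD83 and Thrsp at -0.242 without BXD70.

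**Figure D1:**
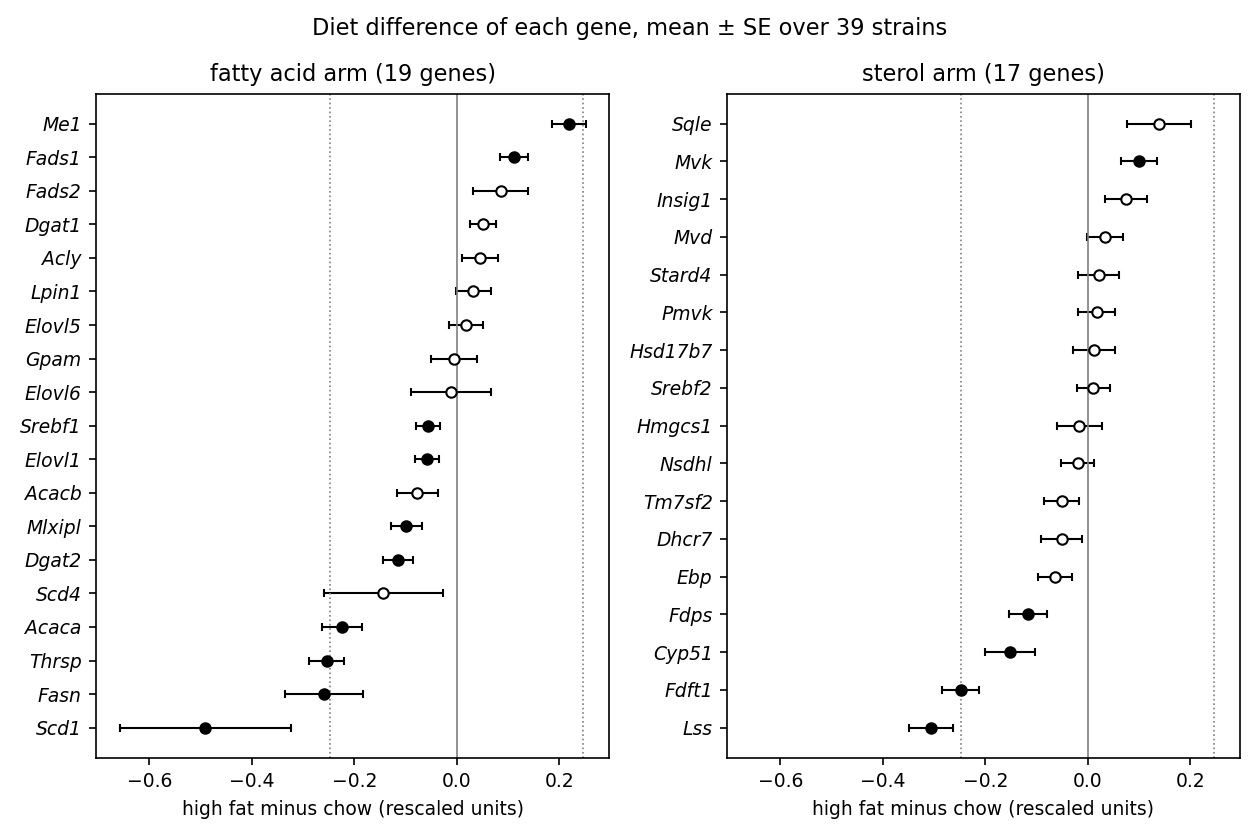
Difference between high fat and chow (x axis, rescaled units) for the 19 measured genes of the fatty acid arm and the 17 of the sterol arm, as mean and SE over 39 strains; filled points passed limma at an adjusted p under 0.05, and dotted lines mark 0.247 units either side of 0. Scd1, Fasn, Thrsp, Lss and Fdft1 lie beyond the lower dotted line, and no gene lies beyond the upper one.

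The enzymes of de novo synthesis did not move together, with Fasn and Acaca lower and Me1 higher on high fat. Fasn, the synthase itself, ranged between 9.67 and 10.58 units on high fat with a median of 9.98, against 9.62 to 12.07 with a median of 10.13 on chow. The ranges overlapped, but 7 of 39 chow values lay above the highest high fat value, those of BXD56 (12.07) and C57BL/6J (11.78) farthest, and 2 lay below the lowest. Fasn was lower on high fat by a mean difference of -0.26 ± 0.0763 units (SE, 39 strains, adjusted p = 0.00494 in limma), with 27 strains lower and 12 higher. Acaca, the carboxylase that makes malonyl-CoA for synthesis, ranged between 8.11 and 9.04 units on high fat (median 8.73), against 8.56 to 9.50 (median 8.96) on chow. It fell in 32 of 39 strains, with a mean difference of -0.224 ± 0.039 units (adjusted p = 8.61e-06). In a bulk sample, fewer cells of a type and less RNA per cell cannot be told apart.

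Me1, the cytosolic malic enzyme that supplies NADPH for synthesis, went the other way. It ranged between 10.77 and 12.11 units on high fat with a median of 11.30, against 10.43 to 11.86 with a median of 11.04 on chow. The groups overlapped, but within strains Me1 rose in 34 of 39, by 0.218 ± 0.0332 units (adjusted p = 8.54e-07). Acly, which cleaves citrate to acetyl-CoA, did not pass (0.0446 ± 0.0348 units, adjusted p = 0.305). Neither did Acacb, the carboxylase at the mitochondrial surface (-0.0771 ± 0.0395 units, adjusted p = 0.109, lower in 28 strains), although without BXD68 it did (-0.10 units, adjusted p = 0.0136).

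The 3 regulators of the fatty acid arm were all lower on high fat. Thrsp, a thyroid hormone responsive protein that promotes lipogenesis, ranged between 7.59 and 8.91 units on high fat (median 8.36), against 7.83 to 9.16 (median 8.65) on chow. It fell in 34 of 39 strains, with a mean difference of -0.254 ± 0.0347 units (adjusted p = 9.87e-08), the smallest adjusted p of the module. The strain differences ran between -0.686 units in BXD70 and 0.148 units in BXD43. Mlxipl, which encodes ChREBP, fell by 0.0986 ± 0.0296 units in 26 strains (adjusted p = 0.00593). It lost its call without the strain term (-0.0767 units, adjusted p = 0.0907 in limma). The call was also lost with 4 cell type marker means as covariates (-0.0158 units, adjusted p = 0.831). Srebf1, which encodes SREBP-1, was at -0.0557 ± 0.0235 units, lower in 28 strains. Its adjusted p of 0.0497 was at the threshold, and the call was lost in 28 of the 39 cases that left out 1 strain. The differences of Mlxipl and Srebf1 were both below the 0.247 units of the control probe sets.

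Promoters are shown for Fasn, the central enzyme of the arm, and for Thrsp and Me1, which moved in opposite directions between the diets and also differed between the parents. They are the 250 bases before an annotated start in RefSeq (GRCm38.p6), written 5′ to 3′ on the gene's strand. Capitals mark matches on either strand to a sterol regulatory element (TCACNCCAC), an NF-Y box (CCAAT), an E-box (CACGTG) or a GC box (GGGCGG), none of which contains another. Fasn lies on the minus strand, with its window at chr11:120824548-120824797, Thrsp on the minus strand at chr7:97417551-97417800, and Me1 on the minus strand at chr9:86695915-86696164, the upstream one of 2 annotated starts.
Fasn: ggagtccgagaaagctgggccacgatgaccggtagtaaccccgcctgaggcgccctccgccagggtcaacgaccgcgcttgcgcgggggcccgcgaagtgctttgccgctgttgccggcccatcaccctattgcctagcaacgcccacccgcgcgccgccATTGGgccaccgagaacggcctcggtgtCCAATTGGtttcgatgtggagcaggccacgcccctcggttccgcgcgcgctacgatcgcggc
Thrsp: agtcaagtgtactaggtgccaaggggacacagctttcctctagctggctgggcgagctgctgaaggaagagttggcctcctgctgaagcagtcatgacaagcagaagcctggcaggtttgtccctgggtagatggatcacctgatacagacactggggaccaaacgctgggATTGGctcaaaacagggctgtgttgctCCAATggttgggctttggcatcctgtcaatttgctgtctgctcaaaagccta
Me1: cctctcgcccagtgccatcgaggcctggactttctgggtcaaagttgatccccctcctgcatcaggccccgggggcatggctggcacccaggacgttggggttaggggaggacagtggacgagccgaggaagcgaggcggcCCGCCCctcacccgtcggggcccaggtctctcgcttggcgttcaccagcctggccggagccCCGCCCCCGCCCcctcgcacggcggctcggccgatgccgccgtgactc
Fasn and Thrsp hold 3 and 2 matches to the NF-Y box and none to the other motifs, and this Me1 window holds 3 GC boxes and no NF-Y box. The second Me1 start has 1 NF-Y box.

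Desaturases and elongases split in direction. Scd1, the stearoyl-CoA desaturase that makes oleate, had the largest mean difference of the module and is given in full for that reason, chosen after its values were seen. It ranged between 9.32 and 11.97 units on high fat with a median of 10.52, against 9.57 to 13.84 with a median of 10.79 on chow. Scd1 fell by 0.491 ± 0.167 units on high fat (adjusted p = 0.0148), but with only 24 strains lower and 15 higher. Its SD between strains was 0.548 units on high fat, against 1.09 units on chow. The differences ran between -3.08 units in BXD96 and 1.50 units in BXD81, so the mean joins large falls in some strains with rises in others. With any 1 strain left out Scd1 still passed, at -0.543 units without BXD81 and -0.423 units without BXD96, the lowest and the highest of these means.

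Fads1, the delta-5 desaturase of polyunsaturated fatty acids, ranged between 10.74 and 11.59 units on high fat (median 11.17), against 10.61 to 11.43 (median 10.99) on chow. It rose in 30 of 39 strains, by 0.112 ± 0.0269 units (adjusted p = 0.00074). Fads2, the delta-6 desaturase that acts before it, was at 0.0858 ± 0.0535 units and did not pass (adjusted p = 0.192). Scd4, a desaturase isoform known from mouse heart, was at -0.144 ± 0.116 units and did not pass either (adjusted p = 0.32). Among the elongases Elovl1, which extends saturated very long chains, fell by 0.0583 ± 0.0235 units in 28 strains (adjusted p = 0.0397). That call was lost in 15 of the 39 cases that left out 1 strain. Elovl5, the elongase of polyunsaturated chains, and Elovl6, which extends palmitate, did not pass, at 0.0177 and -0.0118 units.

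Of the 4 glycerolipid genes, which join fatty acids to glycerol, only Dgat2 passed. Dgat2, a terminal acyltransferase of triglyceride synthesis, ranged between 12.39 and 13.45 units on high fat (median 12.95), against 12.70 to 13.43 (median 13.12) on chow. It fell in 31 of 39 strains, with a mean difference of -0.115 ± 0.0292 units (adjusted p = 0.00136). The other terminal acyltransferase, Dgat1, was at 0.0509 ± 0.0247 units and did not pass (adjusted p = 0.0902), except without BXD55 (adjusted p = 0.0487). Gpam, which adds the first acyl chain, and Lpin1, the phosphatidate phosphatase, did not pass, at -0.00549 and 0.0322 units.

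**Figure D2:**
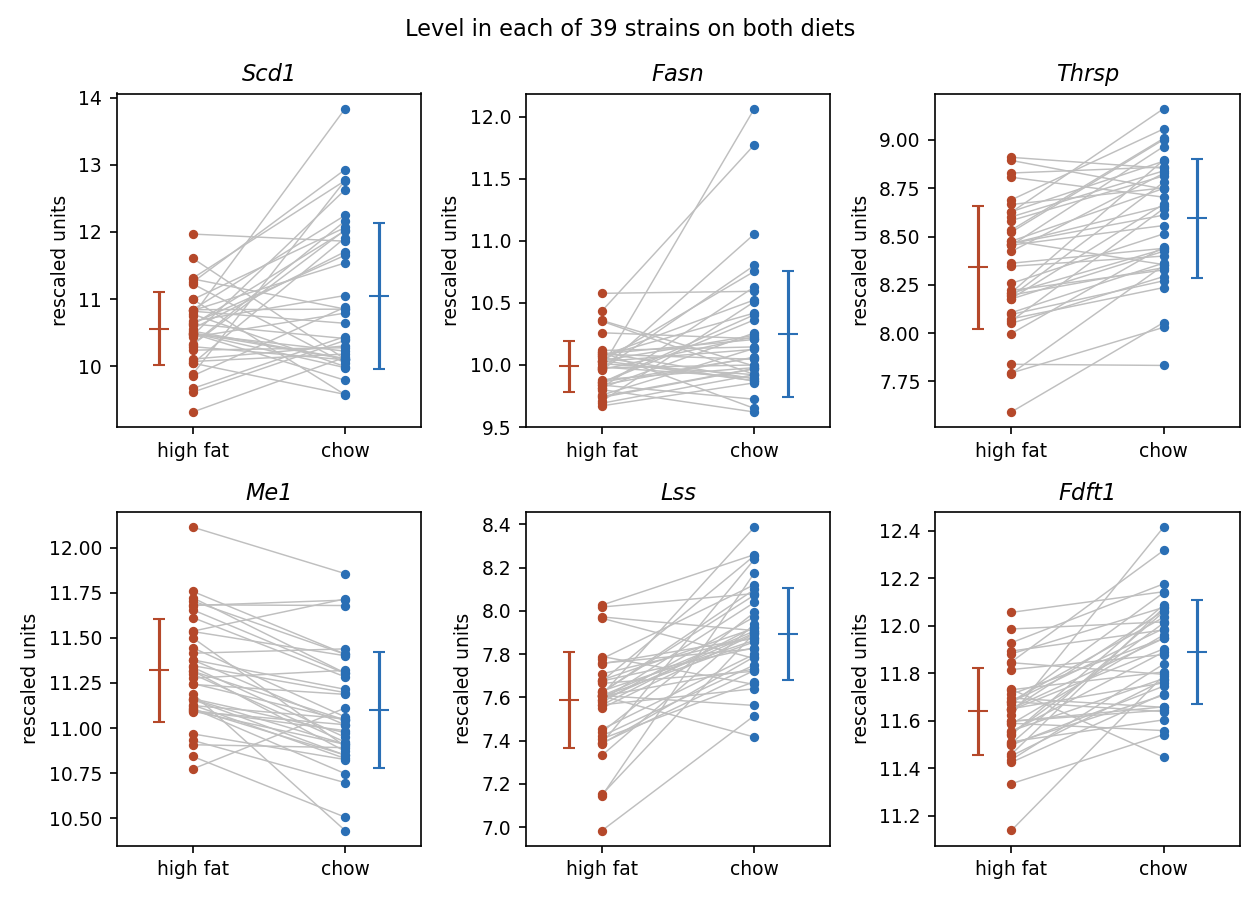
Levels of Scd1, Fasn, Thrsp, Me1, Lss and Fdft1 (y axis, rescaled units) in each of 39 strains on high fat (left) and chow (right), with a line per strain and the mean and SD beside each group. The SD of Scd1 was 0.548 on high fat and 1.09 on chow and that of Fasn 0.207 on high fat and 0.51 on chow, while Thrsp, Lss and Fdft1 fell in 34 strains each and Me1 rose in 34.

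The 4 sterol genes that fell act between the making of farnesyl diphosphate and the trimming of lanosterol, the first sterol. Lss, which closes squalene epoxide into lanosterol, ranged between 6.99 and 8.03 units on high fat with a median of 7.61, against 7.42 to 8.39 with a median of 7.89 on chow. The groups overlapped, but Lss fell in 34 of 39 strains, with a mean difference of -0.306 ± 0.0434 units (adjusted p = 2.06e-07). Fdft1, the squalene synthase that commits farnesyl diphosphate to sterols, ranged between 11.14 and 12.06 units on high fat (median 11.65), against 11.45 to 12.42 (median 11.89) on chow. It also fell in 34 strains, with a mean difference of -0.248 ± 0.0362 units (adjusted p = 3.57e-07). Sqle, the squalene epoxidase between these enzymes, was at 0.139 ± 0.0625 units, higher in 24 strains, and did not pass (adjusted p = 0.0668). It passed when BXD43, BXD69, BXD95 or BXD97 was left out (adjusted p = 0.0323, 0.0383, 0.0478 and 0.0173).

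Cyp51, the lanosterol demethylase, ranged between 7.65 and 8.70 units on high fat (median 8.16), against 7.54 to 8.84 (median 8.37) on chow. It fell in 28 strains, with a mean difference of -0.152 ± 0.0486 units (adjusted p = 0.00953). Fdps, which makes farnesyl diphosphate, ranged between 9.04 and 9.81 units on high fat (median 9.48), against 9.20 to 9.84 (median 9.59) on chow, and fell in 27 strains, with a mean difference of -0.116 ± 0.0371 units (adjusted p = 0.00946). The only sterol member to rise was Mvk, the mevalonate kinase. It ranged between 8.49 and 9.30 units on high fat (median 9.03), against 8.68 to 9.15 (median 8.88) on chow, and was higher in 27 strains by 0.10 ± 0.0347 units (adjusted p = 0.0165).

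The remaining mevalonate enzymes did not pass. Hmgcs1, the synthase that makes the precursor of mevalonate, was at -0.0165 ± 0.0435 units (adjusted p = 0.784). Pmvk and Mvd, the kinase and decarboxylase after Mvk, were at 0.0175 and 0.0333 units. After Cyp51, the reductases and isomerases Tm7sf2, Nsdhl, Hsd17b7, Ebp and Dhcr7 lay between -0.0637 and 0.0126 units. None passed in limma, nor at an unadjusted p under 0.05. Insig1, which holds SREBP in the endoplasmic reticulum, Srebf2, which encodes SREBP-2, and Stard4, a cholesterol carrier, were at 0.0745, 0.0113 and 0.0212 units and did not pass at either threshold.

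Promoters of 4 sterol genes are shown, those of the called enzymes Lss, Cyp51 and Mvk and that of Hmgcs1, the only sterol member whose window matched the sterol regulatory element. They come from the same table and are marked the same way. Lss lies on the plus strand at chr10:76531355-76531604, Cyp51 on the minus strand at chr5:4104698-4104947, Mvk on the plus strand at chr5:114444019-114444268, and Hmgcs1 on the plus strand at chr13:119690101-119690350.
Lss: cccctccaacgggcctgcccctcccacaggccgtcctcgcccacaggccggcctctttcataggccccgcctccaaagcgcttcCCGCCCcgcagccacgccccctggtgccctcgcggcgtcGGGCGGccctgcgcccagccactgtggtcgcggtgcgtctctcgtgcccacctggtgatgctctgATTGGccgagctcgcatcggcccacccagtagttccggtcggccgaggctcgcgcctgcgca
Cyp51: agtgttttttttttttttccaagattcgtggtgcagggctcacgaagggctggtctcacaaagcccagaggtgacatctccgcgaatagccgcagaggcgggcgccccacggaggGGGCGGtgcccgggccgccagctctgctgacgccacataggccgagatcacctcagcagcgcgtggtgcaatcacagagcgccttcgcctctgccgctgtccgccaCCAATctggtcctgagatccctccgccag
Mvk: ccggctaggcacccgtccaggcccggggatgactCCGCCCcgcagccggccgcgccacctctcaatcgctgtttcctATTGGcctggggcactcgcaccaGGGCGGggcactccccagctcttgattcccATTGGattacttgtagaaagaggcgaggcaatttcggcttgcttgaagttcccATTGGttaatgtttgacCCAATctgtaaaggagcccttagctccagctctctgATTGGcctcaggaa
Hmgcs1: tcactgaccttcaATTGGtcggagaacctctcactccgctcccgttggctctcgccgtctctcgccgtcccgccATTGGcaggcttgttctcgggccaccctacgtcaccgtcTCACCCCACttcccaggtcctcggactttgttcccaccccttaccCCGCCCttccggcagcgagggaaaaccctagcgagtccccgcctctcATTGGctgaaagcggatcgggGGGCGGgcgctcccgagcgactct
The 4 windows share the NF-Y box and the GC box, with 1 NF-Y match in Lss and Cyp51, 5 in Mvk and 3 in Hmgcs1.

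Over the module, 30 of 39 members were found in the promoter table, with 39 windows. The NF-Y box was present in 14 of 18 sterol windows (77.8%) and in 10 of 21 fatty acid windows (47.6%), against 33.8% of 32851 windows of all genes. The GC box was present in 15 of 18 sterol windows (83.3%) and 9 of 21 fatty acid windows (42.9%), against 32.7% of all. The E-box was present in 3 sterol and 2 fatty acid windows, against 6.02% of all windows. The sterol regulatory element in this spelling was present in 1 window of each arm, that of Hmgcs1 and that of Mlxipl, against 1.05% of all windows. A match describes these letters in this window and nothing more.

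The arms were also followed strain by strain as the mean difference over their members, which is a description with no test. The fatty acid arm was lower on high fat in 23 of 39 strains, with a median of -0.0517 units and a range between -0.419 in BXD56 and 0.138 in BXD95. Members count equally in the mean, so the few with large differences weigh most. In BXD56 the difference was -2.09 units for Fasn and -1.21 for Elovl6, and Scd1 was at 9.88 units on high fat and 12.77 on chow. The sterol arm was lower in 24 strains, with a median of -0.0285 units and a range between -0.271 in BXD95 and 0.122 in BXD85. BXD95 thus had the highest mean of the fatty acid arm and the lowest of the sterol arm. Its fatty acid mean of 0.1381 units was close to those of BXD43 (0.1374), BXD68 (0.1321) and BXD63 (0.1285). The sterol means of these other strains were 0.0738, -0.0228 and 0.0215 units. The fatty acid mean lay below the sterol mean in 22 strains and above it in 17. Over all genes the mean difference of a strain stayed between -0.0402 and 0.047 units.

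**Figure D3:**
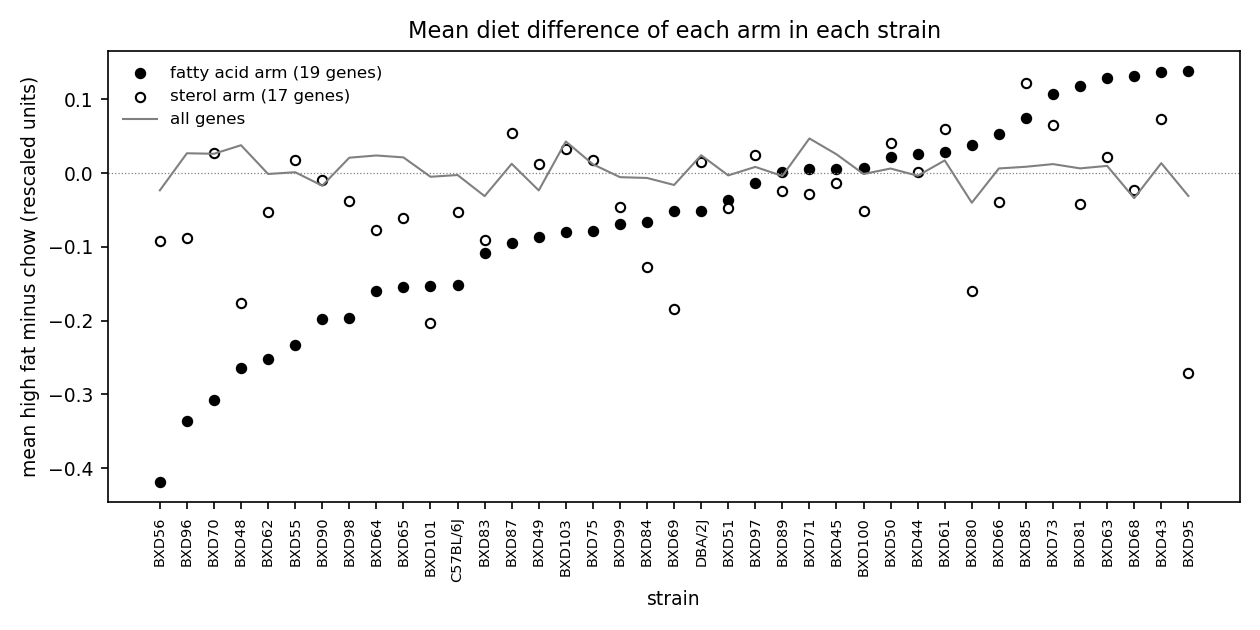
Mean difference between high fat and chow (y axis, rescaled units) over the 19 fatty acid genes (filled) and the 17 sterol genes (open) in each of 39 strains (x axis, ordered by the fatty acid mean), with the mean over all genes as a line. The fatty acid means run between -0.419 and 0.138 units and the sterol means between -0.271 and 0.122 units. BXD95 has the highest filled point, nearly level with that of BXD43, and the lowest open point.

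Hearts can carry fat tissue, whose cells express lipogenic genes, so the members were set beside markers of adipocytes. Of 14 listed markers 12 were measured, with levels between the 29.7th percentile (Adipoq) and the 99.6th (Fabp4). Several of them, such as Fabp4, Aqp7, Lipe and Pparg, are also expressed by other cells of the heart. The mean over the 12 markers ranged between 9.03 and 10.15 units on high fat (median 9.40), against 8.95 to 10.36 (median 9.37) on chow. By diet 0 of the 12 rose (0 also at an unadjusted p under 0.05 in limma), against 23.8% of all genes. The 4 that fell were Adipoq, Adig, Lipe and Aqp7, against 21.2% of all genes. The median difference was -0.0442 units, with 7 markers below 0 and 5 above it. Those above 0 did not pass, among them Plin1 (0.117 ± 0.101 units) and Cidec (0.0871 ± 0.125 units). Adipoq, which encodes adiponectin, was lower on high fat in all 39 strains, with a mean difference of -0.852 ± 0.058 units (adjusted p = 1.63e-15).

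By r at an adjusted p under 0.05 (permutation), just 3 members followed the adipocyte marker mean over strains, and all belong to the fatty acid arm. Scd1 correlated with it at r = 0.751 over 39 high fat strains (rho = 0.624), at r = 0.871 over 42 chow strains (rho = 0.866), and at r = 0.876 for the difference between the diets (rho = 0.873). On chow and for the difference, Scd1 had the highest r of all genes tested. Without the 2 strains farthest from the marker median, its r was 0.661 on high fat, 0.866 on chow and 0.85 for the difference. Permutation p-values for r were 1e-05, the smallest that 100000 draws can give, in all 3 cases, and p adjusted over all genes was 0.0202 on high fat, 0.00326 on chow and 0.00321 for the difference. BXD96, where Scd1 was at 10.75 units on high fat and at 13.84 on chow, the highest on chow, had a marker mean of 9.29 units on high fat and 9.90 on chow. The marker mean is not scaled by gene, and Car3 had the largest SD of the 12 markers, 1.17 units on high fat and 1.59 on chow. Car3 was also the gene with the highest r with Scd1 in all 3 cases. With the mean of Adipoq, Plin1 and Cidec instead, the r of Scd1 was 0.631 on high fat, 0.772 on chow and 0.769 for the difference. Its ranks among all genes tested were then 22, 6 and 5.

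The r of Fasn with the markers was 0.544 on high fat, which did not pass (rho = 0.398, adjusted p = 0.111, permutation) and was 0.332 without the 2 farthest strains. It passed at r = 0.691 on chow (rho = 0.691, adjusted p = 0.00326) and r = 0.724 for the difference (rho = 0.743, adjusted p = 0.00321). Elovl6 followed them at r = 0.616 on high fat (rho = 0.535), 0.65 on chow (rho = 0.519) and 0.697 for the difference (rho = 0.708), with permutation p adjusted over all genes of 0.0369, 0.00326 and 0.00321. By rho, Elovl6 passed for the difference only. With the mean of Adipoq, Plin1 and Cidec alone, Fasn passed on high fat too (r = 0.567, adjusted p = 0.0486, permutation), which made 3 members in each case. By rho 0 members passed with that mean on high fat (Fasn at 0.494, adjusted p = 0.215) and the same 3 passed on chow and for the difference. With the mean of all 12 markers, members with a positive r past the threshold numbered 2 on high fat, 3 on chow and 3 for the difference, against 0.113%, 0.92% and 1.01% of all genes. No sterol member passed in any of these settings, and at an unadjusted permutation p under 0.05 there were 0 with a positive r and 2 on high fat and 1 on chow with a negative r. At that unadjusted p, a positive r was found for 4 fatty acid members on high fat, 5 on chow and 7 for the difference. For the difference 2 others had a negative r. Thrsp and Me1 did not follow the markers, with r of 0.112 and -0.00694 on high fat, 0.0887 and 0.108 on chow, and -0.0264 and -0.175 for the difference.

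**Figure D4:**
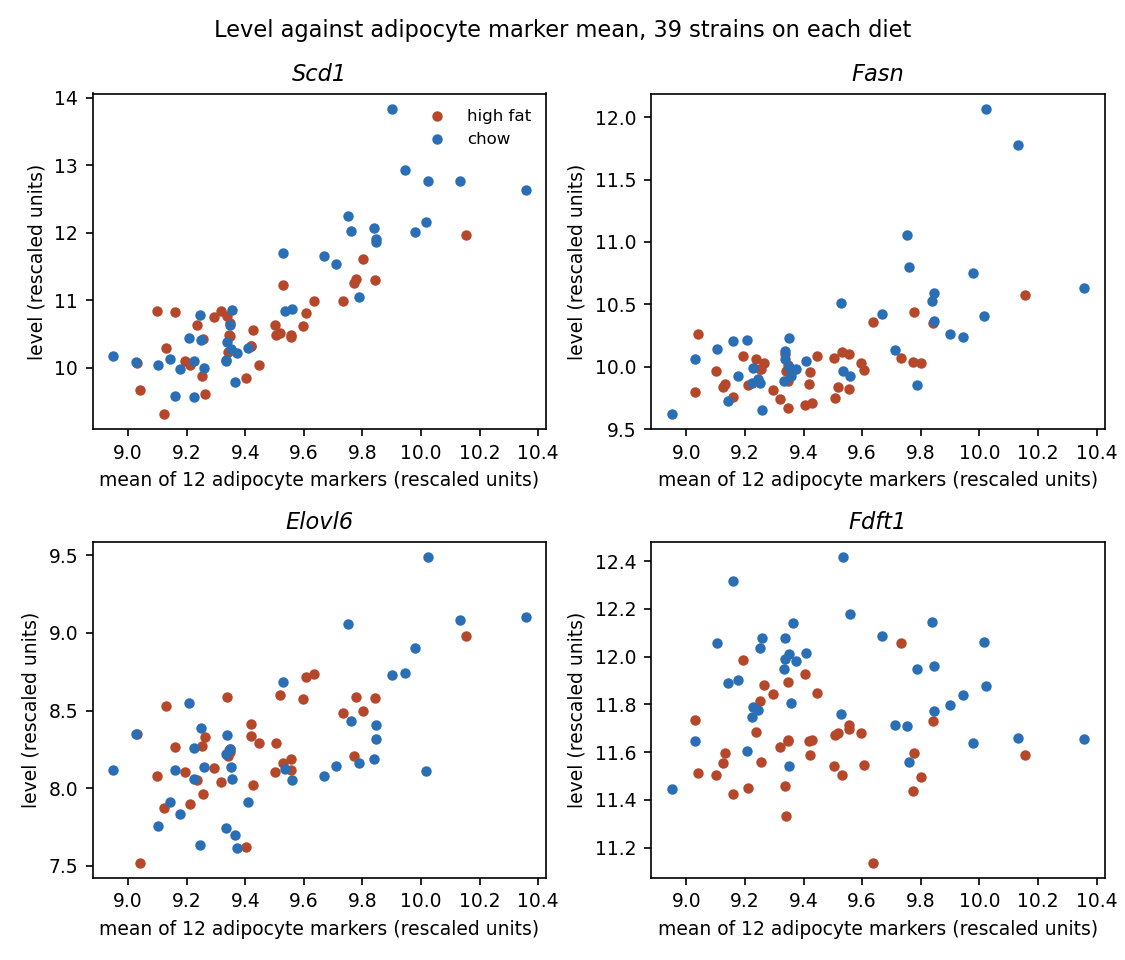
Levels of Scd1, Fasn, Elovl6 and Fdft1 (y axes, rescaled units) against the mean of 12 adipocyte markers (x axis, rescaled units) in 39 strains on high fat and the same strains on chow. Scd1 rises with the marker mean on both diets (r = 0.751 on high fat and 0.871 on chow), while the sterol gene Fdft1 shows no such slope (r = -0.0491 and -0.0804); each chow r is over 42 strains, which include 3 that are not drawn.

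With the adipocyte marker mean as a covariate in the diet test, 3 members were higher and 12 lower on high fat, as without it. The difference of Scd1 was then -0.223 units (adjusted p = 0.0311 in limma), against -0.491 without it, and that of Fasn -0.16 (adjusted p = 0.0187), against -0.26. Elovl1 lost its call (adjusted p = 0.0795) and Acacb gained one (-0.10 units, adjusted p = 0.0358). With 4 marker means as covariates (adipocyte, brown adipocyte, atrial and macrophage), 4 members were called lower (Thrsp, Lss, Fdft1 and Cyp51) and 3 higher (Me1, Fads1 and Fads2). The difference of Scd1 was -0.123 units (adjusted p = 0.505), that of Fasn -0.181 (adjusted p = 0.114) and that of Acaca -0.147 (adjusted p = 0.0523). Those means hold genes that themselves differed between the diets, such as Zic1, Cidea and Cd68, and over all genes the calls came to 2669 higher and 2686 lower, against 5288 and 4697 without covariates. The part of other tissues in the Scd1 and Fasn differences was not tested beyond these values.

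Scd1 also followed the atrial markers, at r = 0.562 on high fat (rho = 0.638, adjusted p = 0.0188, permutation), 0.674 on chow (rho = 0.722, adjusted p = 0.00382) and 0.611 for the difference (rho = 0.70, adjusted p = 0.00472). It was the 1 member with a positive r past the threshold in each case, against 1.24%, 1.0% and 1.54% of all genes. By rho Fasn passed as well on chow (0.664, adjusted p = 0.00286, permutation) and for the difference (0.545, adjusted p = 0.0215), and Elovl6 for the difference (0.522, adjusted p = 0.0396). The rho of Fasn on high fat was 0.509 (adjusted p = 0.0554). Dgat2 ran against them for the difference (r = -0.532, rho = -0.569, adjusted p = 0.035), as did 0.537% of all genes. The atrial mean varied widely between pools, from 8.74 to 14.18 units on high fat and from 8.75 to 14.09 on chow. With brown adipocyte markers 0 members passed, as did 0.0% of all genes, and at an unadjusted permutation p under 0.05 positive r was found for 3 fatty acid members on high fat, 3 on chow and 4 for the difference.

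By r, 3 members of the fatty acid arm passed with hepatocyte markers, a comparison added after seeing the data, but by rho Scd1 on chow alone did (adjusted p = 0.0328, permutation). Fads2 correlated with the mean of 8 such markers at r = 0.463 on high fat (rho = 0.408, adjusted p = 0.381, permutation), 0.648 on chow (rho = 0.49, adjusted p = 0.00191) and 0.65 for the difference (rho = 0.576, adjusted p = 0.0107). Without the 2 strains farthest from the marker median its r was 0.39, 0.428 and 0.453. Scd1 passed on chow (r = 0.614, rho = 0.566, adjusted p = 0.00191) and for the difference (r = 0.552, rho = 0.481, adjusted p = 0.0265), and Elovl5 for the difference only (r = 0.604, rho = 0.481, adjusted p = 0.0177). With the 2 farthest strains left out the r was lower, at 0.443 on chow and 0.408 for the difference for Scd1 and at 0.392 for Elovl5. The rho of Fads2 missed the threshold on chow and for the difference (adjusted p = 0.21 and 0.0725), as did that of Scd1 and of Elovl5 for the difference (0.308 and 0.31). Members past the threshold by r numbered 0 on high fat, 2 on chow and 3 for the difference, against 0.244%, 0.848% and 0.573% of all genes, and no sterol member was among them. The hepatocyte mean ranged between 7.93 and 10.05 units on high fat, against 7.92 to 12.09 on chow. With adipocyte and hepatocyte marker means as covariates in the diet test, Fads2 was higher on high fat by 0.121 units (adjusted p = 0.0207 in limma), against 0.0858 and no call without them. With the adipocyte mean alone it was 0.119 (adjusted p = 0.0642). The difference of Scd1 with both means was -0.219 units (adjusted p = 0.00613), against -0.223 with the adipocyte mean alone, and that of Elovl5 was 0.0394 (adjusted p = 0.257).

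Within the fatty acid arm, Fasn was set against its neighbours in the pathway over strains. Of 27 listed pairs 21 had both genes measured, which gave 63 relations over both diets and the difference, with p adjusted over all genes for each pair's first gene. On high fat 0 pairs passed, with 0.0% of all genes past the threshold for Fasn, and 5 of 21 pairs had an unadjusted permutation p under 0.05. There the r of Fasn was 0.443 with Elovl6, 0.449 with Scd1 and 0.466 with Acaca. On chow Fasn correlated with Elovl6 at r = 0.767 (rho = 0.602, adjusted p = 0.0202, permutation), the highest r of Fasn with any gene. It also correlated with Scd1 at r = 0.652 (rho = 0.675, adjusted p = 0.0317) and with Acaca at r = 0.633 (rho = 0.499, adjusted p = 0.0317), which did not pass by rho (adjusted p = 0.0892). For the difference between the diets, Fasn and Scd1 correlated at r = 0.74 (rho = 0.759, adjusted p = 0.0444), again the highest r of Fasn with any gene. As background, 0.122% of all genes had a positive r with Fasn past the threshold on chow and 0.0225% for the difference. Without the 2 farthest strains r was 0.643 for Elovl6, 0.648 for Scd1 and 0.473 for Acaca on chow, and 0.719 for Scd1 for the difference.

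Fasn did not follow the regulators Srebf1 (r = 0.0458 on high fat and -0.0198 on chow) or Thrsp (0.114 and 0.18), nor Me1 (-0.156 and -0.00374). Fads1 and Fads2, which are neighbours in the polyunsaturated pathway, had r = 0.104 on high fat, 0.42 on chow and 0.581 for the difference, and none passed (adjusted p = 0.978, 0.579 and 0.0887). With Fads1, 0.0% of all genes passed in any of these cases. By r with Fads1, Fads2 ranked 6795 among all genes on high fat, 161 on chow and 18 for the difference. Of 18 relations within the sterol arm 0 passed, and 1 had an unadjusted permutation p under 0.05. Apart from Insig1 with Hmgcs1, all of these pairs included Sqle. As background, 0.0% of all genes passed with Sqle in any case, and 0.0% with Insig1 or Hmgcs1 on chow or on high fat. For the difference, a positive r passed for 0.108% of all genes with Insig1 and 0.144% with Hmgcs1. A negative r passed there for 0.0451% and 0.018%. The level of Sqle lay at the 26.3rd percentile of genes, and it did not differ between strains (adjusted p = 0.431 in limma's F test). No listed pair held Fdft1, Lss, Fdps or Mvk, so these relations do not describe the sterol arm as a whole. Hmgcs1 and Sqle, both textbook targets of SREBP-2, had r = 0.212 on high fat (adjusted p = 0.748) and 0.0447 on chow (adjusted p = 0.965). The highest sterol r was that of Sqle with Srebf2 on high fat, at 0.53 (adjusted p = 0.296).

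By strain, 14 of 36 members differed in limma's F test, against 14.8% of all genes, 8 in the fatty acid arm and 6 in the sterol arm. The size of a strain effect is given as the intraclass correlation of a strain's 2 arrays after removal of the diet means, and over all genes its median was 0.155. In the fatty acid arm it was highest for Me1 (0.776, adjusted p = 4.51e-08), Thrsp (0.763, adjusted p = 9.05e-08), Fads1 (0.712, adjusted p = 9.6e-06) and Dgat2 (0.686, adjusted p = 2e-05). Lpin1 followed at 0.643 and Srebf1 at 0.587. Fasn and Scd1 had low values, 0.168 and 0.175, and did not pass (adjusted p = 0.214 and 0.188).

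Strains are named here by their mean over both diets. Me1 was highest in BXD48, at 12.11 units on high fat and 11.86 on chow, and lowest in BXD101, at 10.84 on high fat and 10.51 on chow. Thrsp was highest in BXD45, at 8.63 units on high fat and 9.16 on chow, and lowest in BXD51, at 7.59 on high fat and 8.06 on chow. Fads1 was highest in BXD81, at 11.59 units on high fat and 11.29 on chow, and lowest in BXD51, at 10.78 on high fat and 10.61 on chow. Dgat2 was highest in BXD71, at 13.31 units on high fat and 13.43 on chow, and lowest in BXD49, at 12.39 on high fat and 12.89 on chow.

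In the sterol arm the strain effect was highest for Hsd17b7, a reductase of late sterol intermediates (0.596, adjusted p = 0.000202), and Stard4 (0.556, adjusted p = 0.000845). Nsdhl, a sterol dehydrogenase, was at 0.445 (adjusted p = 0.0201) and Hmgcs1 at 0.395 (adjusted p = 0.0258). Hsd17b7 ranged between 9.60 and 10.99 units on high fat (median 10.40), against 9.61 to 11.01 (median 10.30) on chow, and BXD87 was its highest strain, at 10.99 and 10.91 units. Stard4 ranged between 7.60 and 8.65 units on high fat (median 8.14), against 7.41 to 8.69 (median 8.21) on chow, with DBA/2J highest, at 8.45 and 8.69 units. Nsdhl ranged between 9.00 and 9.90 units on high fat (median 9.54), against 9.05 to 9.93 (median 9.59) on chow. Hmgcs1 ranged between 9.74 and 10.86 units on high fat (median 10.34), against 9.60 to 10.68 (median 10.38) on chow. None of these 4 differed between the diets at the threshold.

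Between the parents, 4 members differed, against 2.36% of all genes. Each parent had 2 arrays, 1 per diet, and the spread was shared with all strains. Every member was read from 1 probe set. Whether sequence differences between strains lie under its probes was not analysed here, for the parents or for the strain test. Thrsp was at 7.79 units on high fat and 8.03 on chow in DBA/2J, against 8.53 and 9.01 in C57BL/6J, a difference of -0.859 ± 0.153 units (SE, adjusted p = 0.000269 in limma). Me1 was at 10.93 and 10.70 units in DBA/2J, against 11.54 and 11.40 in C57BL/6J, a difference of -0.653 ± 0.147 units (adjusted p = 0.00557). Both lipogenic genes were thus lower in DBA/2J on either diet. Fads1 and Cyp51 were the reverse.

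Fads1 was at 11.33 units on high fat and 11.11 on chow in DBA/2J, against 10.74 and 10.83 in C57BL/6J, a difference of 0.43 ± 0.119 units (adjusted p = 0.0359). Cyp51 was at 8.70 and 8.84 units in DBA/2J, against 7.90 and 7.80 in C57BL/6J, a difference of 0.92 ± 0.215 units (adjusted p = 0.00829). For Cyp51 the DBA/2J value was the highest of 39 strains on both diets, and 1 BXD strain lay below both parents. Of the 37 BXD strains 12 lay nearer to DBA/2J in their mean Thrsp over both diets and 25 nearer to C57BL/6J. For Me1 17 lay nearer to DBA/2J and 20 nearer to C57BL/6J, for Cyp51 15 and 22, and for Fads1 24 and 13. Fasn and Scd1 were at -1.15 ± 0.337 and -1.85 ± 0.737 units between the parents and did not pass (adjusted p = 0.0573 and 0.228).

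**Figure D5:**
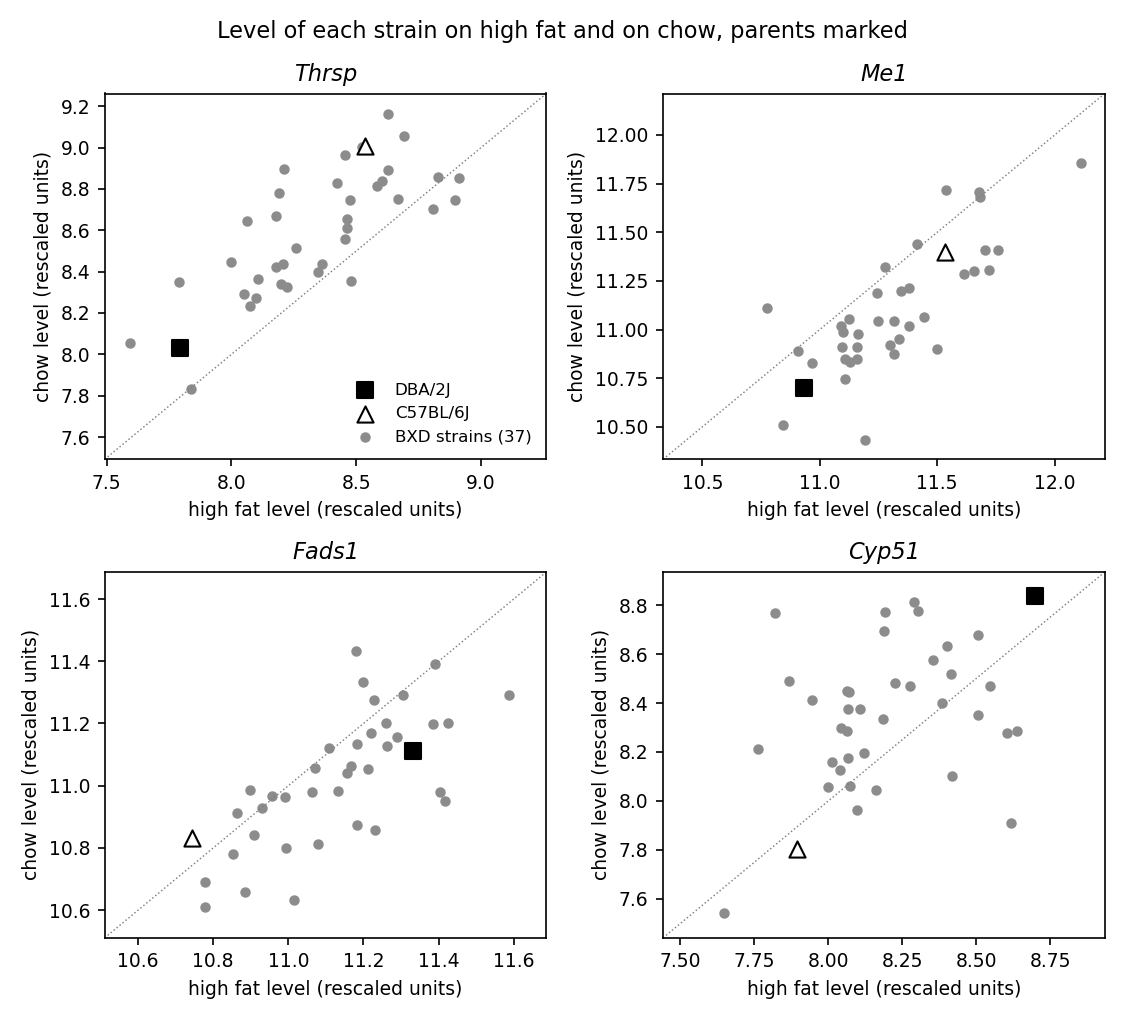
Level on high fat (x axis) against level on chow (y axis), both in rescaled units, for Thrsp, Me1, Fads1 and Cyp51 in 37 BXD strains (grey), DBA/2J (filled square) and C57BL/6J (open triangle); the dotted line marks equal levels. DBA/2J is below C57BL/6J on both axes for Thrsp and Me1 and above it for Fads1 and Cyp51, and most Thrsp points lie above the line and most Me1 points below it.

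Other genes of both pathways were read from wider lists for comparison. Of 39 other fatty acid genes 38 were measured, and 42.1% of these were called between the diets, against 45.0% of all genes. On high fat 9 rose, 7 fell and 22 did not pass, with a median difference of 0.0434 units. Among them Agpat2, an acyltransferase of phosphatidate synthesis, rose by 0.175 ± 0.029 units in 33 strains (adjusted p = 3.88e-06). Its relative Agpat4 rose by 0.248 ± 0.0471 units in 32 strains. Mogat1, a monoacylglycerol acyltransferase, fell by 0.259 ± 0.0371 units in 35 strains (adjusted p = 2.65e-07). Elovl2, an elongase of polyunsaturated chains, fell by 0.344 ± 0.0677 units in 32 strains. Oxsm and Mecr, enzymes of the separate mitochondrial fatty acid pathway, fell by 0.172 ± 0.0328 units in 31 strains and fell by 0.121 ± 0.0244 units in 32.

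Of 34 other sterol genes 26 were measured, and 53.8% of these were called between the diets, against 45.0% of all genes. On high fat 12 rose, 2 fell and 12 did not pass, with a median difference of 0.0598 units, while 23.8% of all genes rose and 21.2% fell. Insig2, the second protein that retains SREBP, averaged 10.43 ± 0.123 units on high fat, against 10.20 ± 0.124 on chow (SD, 39 strains each). It rose by 0.226 ± 0.0277 units in 35 of 39 strains (adjusted p = 8.58e-09), while Insig1 did not pass (0.0745 ± 0.0407 units), and the difference between the pair was not tested. Mbtps1 and Mbtps2, the proteases that release SREBP from the membrane, rose by 0.143 ± 0.0273 units in 33 strains and by 0.169 ± 0.0319 units in 34. Abcg1, an exporter of cholesterol, rose by 0.235 ± 0.037 units in 33 strains, and Scarb1, a lipoprotein receptor, by 0.153 ± 0.0312 units in 30. Stard6, a lipid carrier, rose by 0.251 ± 0.0439 units in 33 strains. The rule that named these 12 genes, called and in 1 direction in at least 30 strains, was met by 9 genes of each list and by 21.3% of all genes.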

How the data were processed

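RNA of whole hearts was measured on 81 Affymetrix whole-transcript arrays, 1 per pool of about 5 animals. The authors deposited a score for each of 41345 probe sets. Per the submitters' processing notes Affymetrix Expression Console was used; summarisation, background correction and genome build are not stated. Every column of the file averages 8 with an SD of 2, so the scaling hides any shift common to most transcripts. The plan assumed log-like values, and no fold was computed because the base is unknown. Array number, not depth, limits the precision.

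Probe sets were named from the platform's gene table, where 23521 carry 1 symbol and 1814 several. Differences were tested over all 22180 genes on the 78 arrays of 39 strains with limma 3.58.1 in R 4.3.3 (lmFit and eBayes, strain and diet as terms, Benjamini-Hochberg adjustment). The F test of the strain terms and a contrast of the parents came from that model. Strain labels pair the arrays, and a strain's own arrays deviated together from the diet means (median r = 0.248, against -0.00927 between strains, with 37 strains over 0.1). Correlations over strains were tested by permutation (100000 draws, two-sided; scipy 1.17.1, numpy 2.4.6) and adjusted over all genes. Tests were checked on simulated data. Members with ranges in full are the 4 with the smallest adjusted p per direction and arm, the 4 highest intraclass correlations per arm and those called between the parents. Other pathway genes are named when called in 1 direction in at least 30 strains, at most 6 per list. Members and lists were chosen with earlier results of these data known. Promoters are from RefSeq, GRCm38.p6, in a table that had no entry for 9 members. As alternatives the fit was repeated without strain, with another variance model, with array weights, after quantile or median scaling, on fewer strains or genes, with mean probe sets and with marker covariates. The covariate pair of adipocyte and hepatocyte markers, and the brown adipocyte, hepatocyte and atrial markers in place of the adipocyte ones, were added after seeing the data.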

Additional observations from a re-analysis of the deposited data

How the results depend on the processing

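Without the strain term (no replicate block, 39 high fat against 42 chow arrays), 2 members were higher and 10 lower on high fat, against 3 and 12 with strain as a block, and Fads1, Srebf1 and Mlxipl lost their calls. Over all genes 4834 were then called higher and 4240 lower, against 5288 and 4697 with the block. Leaving out 1 strain at a time gave 3 to 4 members higher and 10 to 12 lower, with Srebf1 lost in 28 and Elovl1 in 15 of 39 cases. With adipocyte, brown adipocyte, atrial and macrophage means as covariates, 4 members stayed called lower (Thrsp, Lss, Fdft1 and Cyp51); Fasn, Scd1, Acaca, Elovl1, Dgat2, Srebf1, Mlxipl, Fdps and, among those higher, Mvk lost the call. Among these the differences of Elovl1 (-0.0894 units, against -0.0583) and Fdps (-0.13, against -0.116) were no smaller. All others were smaller, those of Scd1 (-0.123, against -0.491), Fasn (-0.181, against -0.26), Acaca (-0.147, against -0.224) and Dgat2 (-0.0774, against -0.115). So were those of Srebf1 (-0.0131, against -0.0557), Mlxipl (-0.0158, against -0.0986) and Mvk (0.0558, against 0.10). Fads2 gained a call (adjusted p = 0.0222 in limma). The cause was not tested. Over all genes 2669 were called higher and 2686 lower with these 4 means. Srebf1 also missed the threshold with arrays centred on their medians (adjusted p = 0.121), in the BXD strains alone (0.0712) and with a trended robust variance (0.0607), and Elovl1 in the first pair of these (0.0929 and 0.0614). Sqle passed with array weights (0.04) and quantile normalization (0.0468), and Ebp with the second (0.045). Over 11 alternatives, called members kept call and direction in 145 of 164 cases; among uncalled members the sign turned in 16. In place of adipocyte markers, brown adipocyte markers gave 0 members with a positive r past the threshold in each setting, and 0.0% of all genes passed. Atrial markers gave 1 in each (Scd1), against 1.24% of all genes on high fat, 1.0% on chow and 1.54% for the difference. By rho Fasn also passed with them on chow, and Fasn and Elovl6 for the difference. Hepatocyte markers gave 0 on high fat, 2 on chow and 3 for the difference, against 0.244%, 0.848% and 0.573% of all genes. By rho these counts were 0, 1 and 0. The counts between strains (12 to 16) and between the parents (4) were close under every alternative run for them. With 1 pool per strain and diet, differences below the 0.247 units of the control probe sets are not set apart by size.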

Other observations

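The 3 strains on chow only stood outside the comparison. Of the 36 members, 33 had values in all 3 of these pools inside the chow range of the other 39 strains. The share over all genes is not given here, so this count describes the members only. Mlxipl lay below it in BXD60 (10.18 units) and BXD79 (10.32), Thrsp above it in BXD92a (9.52), and Cyp51 above it in BXD92a (8.86).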
